A study of Mus musculus with 3 samples.

Results

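Interleukin 17A (Il17a), interleukin 17F (Il17f), interleukin 22 (Il22) and the receptor chain for interleukin 23 (Il23r) are 4 of the 32285 genes in the count matrices, and were taken as the rows with these symbols. IL-23 from myeloid cells binds a receptor made of the Il23r and Il12rb1 chains, and the signal passes through Jak2, Tyk2 and Stat3. Cells that answer in this way make IL-17A and IL-17F, 2 related cytokines that draw neutrophils to epithelia, and IL-22, which acts on epithelial cells rather than on blood cells. In the lung these cytokines come from gamma delta T cells, from alpha beta T cells of the Th17 kind and from group 3 innate lymphoid cells (ILC3), which carry no antigen receptor.

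Cells came from perfused, enzyme-digested lungs of GFI1B-GFP mice, in which GFP reports the zinc finger repressor Gfi1b, and all were sorted as live, CD45+, lineage-negative, CD90.2+ and IL-7R+. The reporter was shared by all groups, no treatment is named, and the age and number of the animals and the lineage antibodies are, in the sources used here, not given. The first library (the IL-18R+ pool) mixes IL-18R+ CD103+ GFP- with IL-18R+ CD103- GFP+ cells, whose barcodes are not assigned to either sort. The second is the IL-18R- CD103- GFP- labelled library, and the third is IL-18R- ST2+, the sort for group 2 innate lymphoid cells (ILC2), so each group is 1 library and no difference between groups has a replicate check. In order, 1659, 1883 and 1622 cells were kept, with 9000301, 9705864 and 7966923 unique molecular identifiers (UMIs, 1 per captured transcript) and median depths of 4932, 4772 and 4568 UMIs per cell. Il18r1 transcript, which encodes the IL-18 receptor chain, stood at 663.3, 591.3 and 16.07 UMIs per 1000000 UMIs of the cells summed (UPM), so the second library went against the IL-18R- of its label. Itgae, the gene of CD103, stood at 99.6 UPM in the pool and 3.4 UPM in the second library, the direction its CD103- label gives. Gfi1b had 0 UMIs in every library, the pool with its GFP+ cells included, so its transcript could not check the GFP labels. A single barcode was shared between the first 2 libraries, and it held 13 Il17a UMIs and 1 Il23r UMI. Leaving that barcode out kept each of the 84 values compared within its counting interval.

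Gates on transcripts of T cell receptor and CD3 chains sorted the cells. The gamma delta gate needed at least 2 UMIs of Trdc, the constant region of the delta chain. The alpha beta gate needed at least 1 UMI each of Trac, the constant region of the alpha chain, and Cd3e, and the CD3-negative gate needed 0 UMIs of Cd3e and Cd3d together. Cells that met 2 gates were held apart. In the IL-18R+ pool 714 cells (43.0%) were in the gamma delta gate alone, 224 in the alpha beta gate and 418 in the CD3-negative gate. The IL-18R- CD103- GFP- labelled library held 1236 (65.6%), 103 and 221, and IL-18R- ST2+ held 10, 3 and 1555. Cd3g, a CD3 chain that no gate used, was found in 99.7% and 98.9% of gamma delta cells of the first 2 libraries and in 99.6% and 98.1% of alpha beta cells. In CD3-negative cells it was found in 8.37%, 12.2% and 20.4%, so some cells of that gate did carry a CD3 chain. Gamma delta cells carried Trdv4, a delta chain variable segment, in 83.5% and 75.2% of cells, and alpha beta cells in 0.893% and 2.91%. Trdv4 was also found in 25.1%, 21.3% and 43.4% of CD3-negative cells, so it did not mark gamma delta cells alone. CD3-negative cells also included other lineages: 132 of the 418 pool cells (31.6%), 23 of 221 (10.4%) and 47 of 1555 (3.02%) had at least 5 UMIs of 15 markers of myeloid, B, endothelial, stromal, epithelial and red cells.

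The 4 genes lie at 3 loci of GRCm38. Il17a is on chromosome 1 at 20730905 to 20734496 on the plus strand with 3 exons, and Il17f is on the same chromosome at 20777146 to 20790617 on the minus strand, 42.6 kb away. Il22 is on chromosome 10 at 118204942 to 118210047 on the plus strand with 5 exons. Il23r is on chromosome 6 at 67422932 to 67491855 on the minus strand with 11 exons. All 4 are protein coding. The 250 bases before the RefSeq start of each gene (RefSeq on GRCm38.p6) are shown because gamma delta cells held most UMIs of Il17a, Il17f and Il23r but not of Il22. The RefSeq starts of Il17f and Il22 differ from those of the GENCODE genes given above. Capitals mark AGGTCA or its reverse complement, a half-site of nuclear receptors, and TATAAA, the core of a TATA box.
Il17a: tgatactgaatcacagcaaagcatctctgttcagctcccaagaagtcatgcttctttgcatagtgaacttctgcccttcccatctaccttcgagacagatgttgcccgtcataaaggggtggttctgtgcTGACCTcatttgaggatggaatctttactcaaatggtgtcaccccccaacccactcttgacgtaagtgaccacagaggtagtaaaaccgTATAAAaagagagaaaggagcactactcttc
Il17f: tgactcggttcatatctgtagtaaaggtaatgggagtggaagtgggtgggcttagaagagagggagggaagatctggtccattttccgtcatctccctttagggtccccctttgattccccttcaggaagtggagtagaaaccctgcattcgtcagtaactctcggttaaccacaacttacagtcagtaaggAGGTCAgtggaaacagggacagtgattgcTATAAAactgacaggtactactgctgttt
Il23r: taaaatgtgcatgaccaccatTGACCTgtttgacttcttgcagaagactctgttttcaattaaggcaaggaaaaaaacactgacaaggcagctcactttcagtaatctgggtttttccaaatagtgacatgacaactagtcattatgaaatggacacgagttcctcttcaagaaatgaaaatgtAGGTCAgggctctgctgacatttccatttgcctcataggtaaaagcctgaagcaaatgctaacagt
Il22: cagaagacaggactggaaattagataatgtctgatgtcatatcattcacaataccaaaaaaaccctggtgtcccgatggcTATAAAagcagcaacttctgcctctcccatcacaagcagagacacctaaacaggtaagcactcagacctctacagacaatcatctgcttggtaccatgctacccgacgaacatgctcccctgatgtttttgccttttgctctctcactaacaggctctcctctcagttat
The windows are chr1:20730655-20730904 on the plus strand for Il17a, chr1:20784271-20784520 on the minus strand for Il17f, chr6:67491856-67492105 on the minus strand for Il23r and chr10:118204714-118204963 on the plus strand for Il22. AGGTCA on either strand was found at -120 in Il17a (counted from the start, minus strand of the gene), at -58 in Il17f, and at -229 and -66 in Il23r, and in 14.0% of 32851 RefSeq promoters of this length. Il22 had no AGGTCA in this window, which says only that these letters are not there. TATAAA began at -31 in Il17a, at -29 in Il17f and at -170 in Il22, and was found on either strand in 12.4% of promoters. TGANTCA, the core that AP-1 factors bind, was found in Il17a at -244, in lower case above, and in 6.75% of promoters. These matches describe letters and are not binding sites.

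Il17a, the gene of the cytokine that gives type 17 cells their name, had 4485 UMIs in the IL-18R+ pool, 3521 in the IL-18R- CD103- GFP- labelled library and 71 in IL-18R- ST2+. Its level was 498.3 (95% Poisson interval 483.8 to 513.1), 362.8 (350.9 to 375.0) and 8.91 (6.96 to 11.2) UPM. Intervals here and below cover counting error only, and not variation between animals or sorts. Those on UMI sums count each UMI as independent and leave out variation between cells. They are too narrow where few cells hold most UMIs, as for Il22. The first 2 libraries were both far above the third, and their intervals did not overlap. Among kept cells, 577 (34.8%), 528 (28.0%) and 5 (0.308%) had Il17a.

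Il17f, whose protein pairs with itself or with IL-17A, had 298, 260 and 3 UMIs in the same order. Its level was 33.1 (29.5 to 37.1), 26.8 (23.6 to 30.3) and 0.377 (0.0777 to 1.10) UPM, in 141, 113 and 2 cells. Il23r had 841, 859 and 5 UMIs, or 93.4 (87.2 to 99.98), 88.5 (82.7 to 94.6) and 0.628 (0.204 to 1.47) UPM, in 573, 567 and 3 cells. The Il23r intervals of the first 2 libraries overlapped. Il22 had 391, 672 and 0 UMIs, or 43.4 (39.2 to 48.0) and 69.2 (64.1 to 74.7) UPM, and none in IL-18R- ST2+. It was found in 36 cells (2.17%), 42 cells (2.23%) and 0 of 1622 cells, which allows a share of cells with a UMI of up to 0.185% (3 counts of the total). About equal shares of cells in the first 2 libraries thus held unequal numbers of Il22 UMIs.

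The pool to second library ratio was 1.37 (1.31 to 1.44) for Il17a, 1.24 (1.04 to 1.47) for Il17f and 1.06 (0.959 to 1.16) for Il23r. For Il22 it was 0.627 (0.553 to 0.712), that is 1.59-fold higher in the IL-18R- CD103- GFP- labelled library. None of the 4 reached the 2-fold size used here to call a gene, which 3.34% of 5808 measured genes (at least 20 UPM in either library) reached in either direction. Scaling by trimmed means (TMM) or by median of ratios shifted all pool to second library ratios by 0.14 and 0.15 on the log2 scale. With them Il17a stood at 1.25 and 1.24, the Il17f interval reached below 1 (1.12, 0.949 to 1.33 with TMM), and Il23r turned to 0.961 and 0.953 with intervals across 1. Against IL-18R- ST2+ all 4 were past 2-fold in both libraries, where 12.3% and 9.61% of measured genes were higher. Il17f, which rested on 3 UMIs in IL-18R- ST2+, was 87.9-fold (29.8 to 429) higher in the pool and 71.1-fold (24.1 to 347) higher in the second library, or 151-fold and 125-fold when averaged over cells. Il23r was 141-fold (60.2 to 435) higher in the second library than in IL-18R- ST2+. Il22 in the second library stood 184-fold above a floor of 3 UMIs in IL-18R- ST2+, and the lower limit of the exact interval was 149-fold. The other scalings shifted these ratios by up to 0.32 on the log2 scale and kept all 4 genes past 2-fold.

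Most of the few Il17a UMIs of IL-18R- ST2+ were outside the CD3-negative gate. Of its 71 Il17a UMIs, 18 were in 1 gamma delta cell, 31 in 1 cell that met the gamma delta and alpha beta gates and 9 in 1 ungated cell. Its 1317 CD3-negative cells with at least 1 UMI each of Il1rl1 and Gata3, which mark ILC2, gave a background with a median depth of 4619 UMIs. Il17a was found in 1 of these cells (0.0759%), Il17f in 1, and Il22 and Il23r in none, which by the same 3 counts allows a share of cells with a UMI of up to 0.228%. In the 132 pool cells with markers of other lineages (median depth 3402 UMIs), Il17a and Il23r were each found in 1 cell (0.758%) and Il17f and Il22 in none. In the 23 such cells of the IL-18R- CD103- GFP- labelled library (3348 UMIs), Il22 was found in 1 (4.35%, 0.110 to 21.9) with 16 UMIs, and the other 3 genes in none.

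Gamma delta cells held most of the Il17a, Il17f and Il23r, and did not hold most of the Il22. In the IL-18R+ pool 377 of 714 gamma delta cells (52.8%, Clopper-Pearson 49.1 to 56.5) had Il17a, with 3092 UMIs, which was 68.9% of all Il17a UMIs of that library. In the IL-18R- CD103- GFP- labelled library 414 of 1236 (33.5%, 30.9 to 36.2) had it, with 2793 UMIs or 79.3% of the total. Cells that met both the gamma delta and the alpha beta gate held another 18.2% and 16.6%. These double-gated cells had median counts of 10 Trdc UMIs and 1 Trac UMI in both libraries, and counting them as gamma delta put 87.5% and 96.0% of Il17a UMIs there (cells that met the gamma delta and CD3-negative gates included). Il17a stood at 905.9 UPM in pool gamma delta cells and 452.5 in those of the second library, a ratio of 2.00 (1.90 to 2.11) at the edge of the 2-fold size, which 1.76% of measured genes reached within this gate in either direction. The median depths of the gates were 4692 and 4686 UMIs per cell. After thinning every cell to 2000 UMIs, which left out 3 and 12 cells, the shares were 45.0% and 26.3%.

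Alpha beta cells had Il17a in the pool and almost none in the other library. In the pool 59 of 224 alpha beta cells (26.3%, 20.7 to 32.6) had Il17a, with 262 UMIs and 202.9 UPM, 4.47-fold (3.94 to 5.09) below the gamma delta gate. Within the IL-18R- CD103- GFP- labelled library 2 of 103 (1.94%, 0.236 to 6.84) had it, with 2 UMIs and 2.97 UPM. The pool stood 68.3-fold (18.7 to 567) above that library in this gate, at median depths of 5504 and 6241 UMIs, and thinned shares were 18.4% and 0%. Across all measured genes 11.2% were at least 2-fold higher in the pool's alpha beta gate. All 4 genes were among them, with Il17f at 36.4 against 7.43 UPM and Il23r at 104.5 against 26.8 UPM. Il22 had 102 UMIs in 12 pool cells and 0 in the 103 cells of the other library, which put the pool 17.7-fold above the floor of 3 UMIs, with 14.1-fold as the lower limit of the exact interval. The 2 gates also differed in other markers of T cell subsets. Cd8a, a chain of the CD8 co-receptor, was found in 3.57% of the pool's alpha beta cells and 29.1% of the other library's, and Ccr6 in 40.6% and 6.80%. Cd4 was rare in both, at 2.23% and 6.80%, and Cd8b1, the other CD8 chain, was found in 12.05% of the pool's alpha beta cells. The part of these differences in the values of the 4 genes was not tested.

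Few CD3-negative cells had Il17a, at median depths of 5374 and 4813 UMIs. In the pool 12 of 418 (2.87%, 1.49 to 4.96) had it with 52 UMIs, and in the IL-18R- CD103- GFP- labelled library 10 of 221 (4.52%, 2.19 to 8.16) with 72 UMIs. Cd3g was found in 3 of those 12 cells and in 6 of those 10. With a stricter gate, which also needed 0 UMIs of Cd3g, Trac, Trbc1, Trbc2 and Trdc, Il17a was found in 2 of 136 pool cells and in 0 of 49 cells of the other library.

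**Figure D1:**
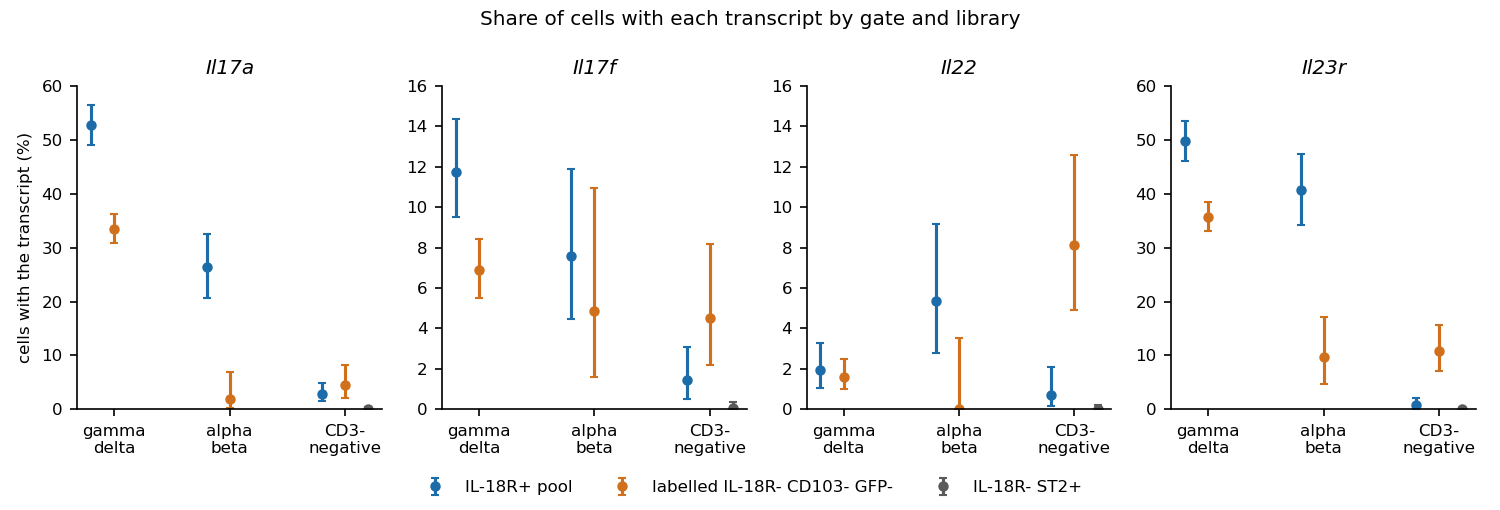
Each panel plots 1 gene, with the share of cells that had at least 1 UMI (percent, linear axis) for the gamma delta, alpha beta and CD3-negative gates, coloured by library. Points are shares, bars are 95% Clopper-Pearson intervals, and gates of under 50 cells (2 in IL-18R- ST2+) are left out. Il17a and Il23r are highest in gamma delta cells of both libraries, while Il22 reaches 5.36% in pool alpha beta cells and 8.14% in CD3-negative cells of the IL-18R- CD103- GFP- labelled library.

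Il23r, the receptor chain, was found in about as many gamma delta cells as Il17a but at 1 or few UMIs per cell. In the pool 355 of 714 gamma delta cells (49.7%, 46.0 to 53.5) had it, at 154.7 UPM and 62.8% of its UMIs. Among cells of the IL-18R- CD103- GFP- labelled library, 441 of 1236 (35.7%, 33.0 to 38.4) had it, at 108.6 UPM and 78.0%. After thinning these shares were 26.3% and 19.5%. Alpha beta cells of the pool followed with 91 of 224 (40.6%, 34.1 to 47.4) and 104.5 UPM, 1.48-fold (1.22 to 1.80) below gamma delta cells. In the other library 10 of 103 alpha beta cells (9.71%, 4.76 to 17.1) had it.

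CD3-negative cells differed most between the libraries in Il23r. It was found in 3 of 418 pool cells (0.718%) and in 24 of 221 cells (10.9%, 7.08 to 15.7) of the IL-18R- CD103- GFP- labelled library. Of the 3 pool cells, 1 was among those with markers of other lineages. The ratio of levels was 22.7-fold (7.003 to 117) on 3 and 28 UMIs, and thinned shares were 0.247% and 5.07%. In that library 4 of 49 cells of the stricter gate (8.16%) still had Il23r.

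Il17f was spread more evenly. In pool cells 84 of 714 gamma delta cells (11.8%, 9.49 to 14.4) and 17 of 224 alpha beta cells (7.59%) had it, at 51.0 and 36.4 UPM. In the IL-18R- CD103- GFP- labelled library 85 of 1236 gamma delta cells (6.88%, 5.53 to 8.43) and 10 of 221 CD3-negative cells (4.52%) had it, at 26.7 and 24.2 UPM. The ratio between these last 2 gates was 1.10 (0.731 to 1.73), so they did not differ beyond counting error. In the pool the same ratio was 15.3 (7.89 to 34.1). A single cell that met the gamma delta and alpha beta gates in the second library held 33 of its 260 Il17f UMIs.

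**Figure D2:**
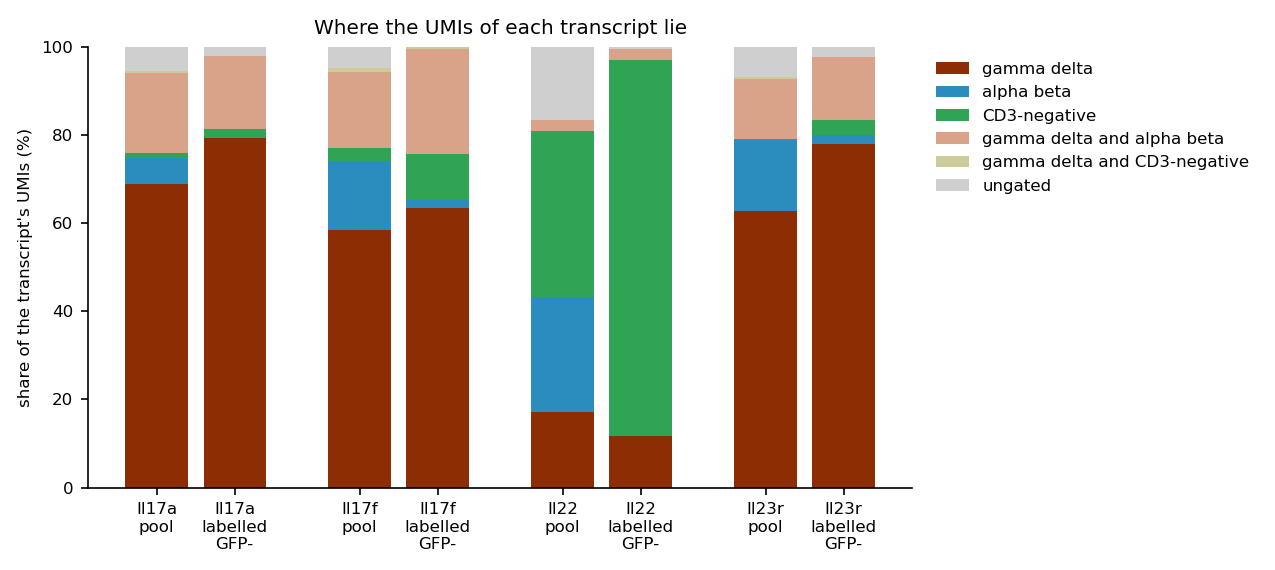
Stacked bars give the share of each gene's UMIs (percent, y axis) held by the 6 classes of cells made by the gates, for the IL-18R+ pool and the IL-18R- CD103- GFP- labelled library (labelled GFP- on the axis). Gamma delta cells hold 58.4% to 79.3% of Il17a, Il17f and Il23r, whereas CD3-negative cells hold 37.6% and 85.3% of Il22.

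Il22 followed another order. Within the IL-18R- CD103- GFP- labelled library 18 of 221 CD3-negative cells (8.14%, 4.90 to 12.6) had Il22 with 573 UMIs, or 85.3% (82.4 to 87.9) of its UMIs, at 514.2 UPM. This was 40.2-fold (31.7 to 51.5) above gamma delta cells of that library, in which 20 of 1236 (1.62%, 0.991 to 2.49) had it, at 12.8 UPM. In the pool 3 of 418 CD3-negative cells (0.718%, 0.148 to 2.08) had 147 UMIs, 12 of 224 alpha beta cells (5.36%, 2.80 to 9.17) had 102, and 14 of 714 gamma delta cells (1.96%, 1.08 to 3.27) had 67. The alpha beta gate of the pool, at 79.0 UPM, stood 4.02-fold (2.93 to 5.56) above its gamma delta gate. The intervals on these UMI shares and ratios treat UMIs as independent, though few cells held most Il22 UMIs. Shares in gamma delta cells were close between the libraries, and their intervals overlapped.

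The CD3-negative gate of the IL-18R- CD103- GFP- labelled library stood 9.47-fold (7.89 to 11.4) above that of the pool in Il22, and the shares of cells after thinning were 8.29% and 0.494%. These levels rest on 18 and 3 cells with Il22, and the interval leaves out variation between those cells. In this contrast 2.98% of measured genes were at least 2-fold higher, and all 4 genes were among them. Il17a stood at 64.6 against 19.2 UPM and Il17f at 24.2 against 3.33 UPM. In the second library a single cell held 38.9% of the Il17a UMIs of this gate, and a single cell 40.7% of its Il17f UMIs. With the stricter gate Il17a and Il17f were found in 0 of 49 cells of that library, and in 2 and 1 of 136 pool cells. The CD3-negative gates of the 2 libraries held unlike cells. The 15 markers of other lineages summed to 5238 UPM in the pool, where all 15 were found. They summed to 2428 UPM in the other library, where 13 were found and Dcn and Sftpc were at 0. Among the 273 and 186 CD3-negative cells without those markers and without the ILC2 pair, Il22 was found in 3 (1.10%) and 17 (9.14%) cells.

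Transcripts of T cell receptor chains were common in CD3-negative cells, including those with Il22. Of the 18 Il22 cells in the IL-18R- CD103- GFP- labelled library, 16 had an alpha or beta chain UMI, 8 a gamma or delta chain UMI and 0 Cd3g. By chain, Trbc2 was found in 12 of them, Trbc1 in 8, Tcrg-C1 in 4, and Trac and Trdc in 1 each. In the same gate 191 of 221 cells (86.4%) had some such chain, and in IL-18R- ST2+, an ILC2 sort, 1495 of 1555 (96.1%). The stricter gate therefore removed most cells of every library. Il22 was then left in 2 of 49 cells with 75 UMIs, which lowered the CD3-negative share of Il22 UMIs from 85.3% to 11.2%, and in 1 of 136 pool cells with 31 UMIs, from 37.6% to 7.93%.

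Amounts per cell set Il22 apart as well. Among cells of the IL-18R- CD103- GFP- labelled library, the 18 CD3-negative cells held 151, 134, 57, 50, 42, 25, 16, 13, 13, 12, 11, 11, 10, 10, 7, 5, 4 and 2 Il22 UMIs, a median of 12.5. The first 2 cells together thus held about as many as the other 16. In the pool the 3 cells held 115, 31 and 1. Gamma delta cells with Il22 had a median of 3 UMIs in both libraries, with highest counts of 17 and 20, and the 12 pool alpha beta cells had a median of 4.5 and a highest count of 23. The top 10 cells held 79.5% of the Il22 UMIs of the pool and 78.1% of those of the other library. Without those 10 cells in each library the pool to second library ratio was 0.588 (0.442 to 0.777), against 0.627 with them.

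Il17a amounts per cell were wide and Il23r amounts narrow. Pool gamma delta cells with Il17a had a median of 6 UMIs, a 90th percentile of 18 and a highest count of 55, and 28.4% of them had at least 10. In the IL-18R- CD103- GFP- labelled library the median was 3, the 90th percentile 16 and the highest count 45, and 23.9% had at least 10. The difference in level between the 2 gamma delta gates thus showed both in how many cells had Il17a and in the middle of its amounts, while the upper ends were close. Il23r had a median of 1 UMI in gamma delta cells with it and highest counts of 5 and 6, so 67.0% of the pool cells with it had a single UMI. At such amounts the share of cells with Il23r depends on depth, as the thinned values show.

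**Figure D3:**
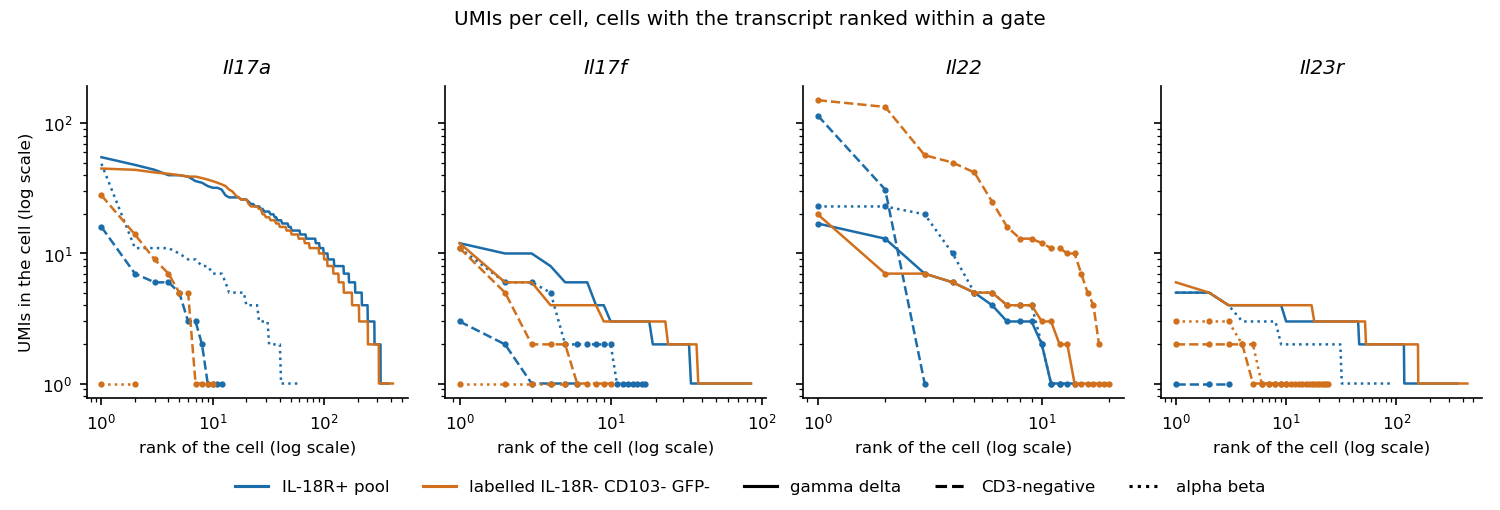
For each gene, cells with the transcript are ranked within a gate (x axis, rank, log scale) by their UMIs (y axis, log scale), coloured by library and with a line style per gate. Il17a curves of the 2 gamma delta gates start at 55 and 45 UMIs, and the CD3-negative Il22 curve of the IL-18R- CD103- GFP- labelled library starts at 151 and lies above the other gates.

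Within gamma delta cells, Il17f was found more often in cells with Il17a than in cells without. In the pool 67 of 377 cells with Il17a (17.8%, 14.0 to 22.0) also had Il17f, against 17 of 337 without (5.04%, 2.97 to 7.95). Within the IL-18R- CD103- GFP- labelled library it was 62 of 414 (15.0%, 11.7 to 18.8) against 23 of 822 (2.80%, 1.78 to 4.17). The intervals did not overlap in either library, and the median depths of the cells with and without Il17a were 4775 and 4629 UMIs in the pool and 4478 and 4775 in the other. Thinned to 2000 UMIs the shares were 9.38% against 3.58% and 8.70% against 1.89%. As a level, Il17f was 3.96-fold (2.67 to 6.04) and 8.57-fold (5.84 to 12.9) higher in the cells with Il17a.

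Read the other way, 67 of 84 pool gamma delta cells with Il17f (79.8%) had Il17a, as did 62 of 85 (72.9%) in the IL-18R- CD103- GFP- labelled library, against 49.2% and 30.6% of cells without Il17f. Most gamma delta cells with Il17f thus also had Il17a, and most with Il17a had no Il17f UMI. Over steps of Il17a amount the Il17f share differed by library. In the pool it was 5.04% at 0, 12.3% at 1, 21.4% at 2 to 4, 13.6% at 5 to 9, 26.4% at 10 to 19 and 11.4% at 20 or more Il17a UMIs. In the other library it was 2.80%, 7.62%, 12.1%, 17.9%, 20% and 34.5% over the same steps. The last step held 35 and 29 cells, and the pool had no steady order.

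Il22 was found in 12 of 377 pool gamma delta cells with Il17a (3.18%) and 2 of 337 without (0.593%), and in 15 of 414 (3.62%) and 5 of 822 (0.608%) in the IL-18R- CD103- GFP- labelled library. Thus 12 of the 14 and 15 of the 20 gamma delta cells with Il22 also had Il17a. The pool intervals overlapped (1.66 to 5.49 against 0.0719 to 2.13), and those of the other library did not (2.04 to 5.91 against 0.198 to 1.41). Thinned to 2000 UMIs, the shares were 2.5% (1.08 to 4.87) against 0.512% (0.0620 to 1.83) and 2.80% (1.29 to 5.24) against 0.665% (0.244 to 1.44). The thinned intervals overlapped in both libraries, which does not show that the shares were equal. As a level at full depth, Il22 was 7.36-fold (3.36 to 19.1) and 8.11-fold (4.68 to 14.8) higher in the cells with Il17a. These ratios rest on few cells with Il22.

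Il23r was found in 54.4% of pool gamma delta cells with Il17a and 44.5% of those without, and in 44.7% and 31.1% in the IL-18R- CD103- GFP- labelled library. Intervals overlapped narrowly in the pool (49.2 to 59.5 against 39.1 to 49.99) and not in the other library. Thinned, the shares were 29.4% against 23.8% and 23.3% against 18.2%, with overlapping intervals in both. The Il23r share did not follow the amount of Il17a: from 1 UMI upward the 5 steps lay between 51.4% and 56.4% in the pool and between 34.6% and 55.2% in the other library. As a level, Il23r was 1.331-fold (1.114 to 1.593) higher with Il17a in the pool and 1.597-fold (1.365 to 1.867) higher in the other library. By the ratio of levels, Il23r therefore differed less than Il17f between cells with and without Il17a.

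**Figure D4:**
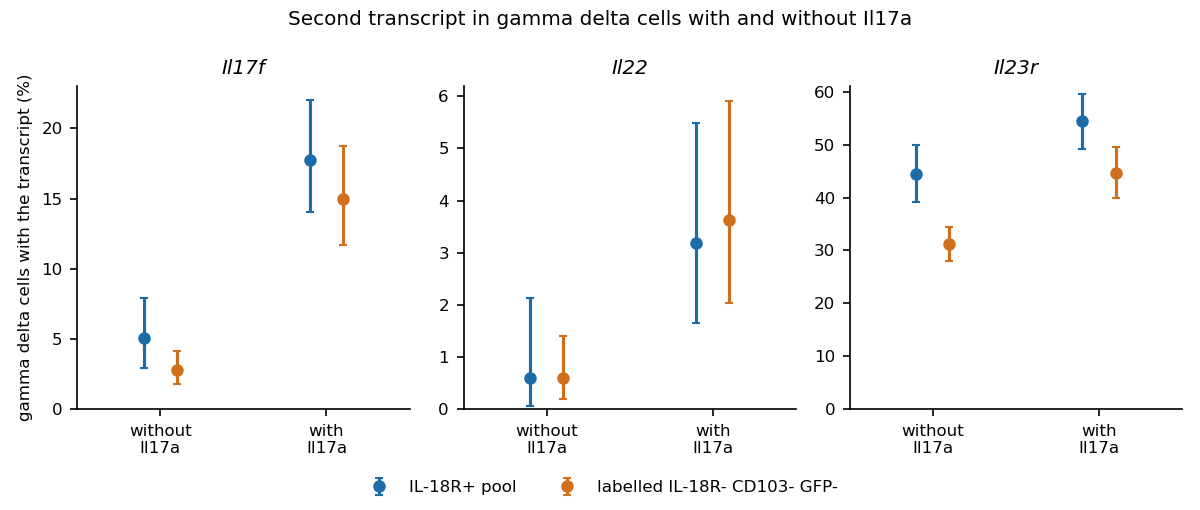
Points give the share of gamma delta cells (percent, y axis, linear from 0) with Il17f, Il22 or Il23r among cells without and with Il17a, coloured by library, with 95% Clopper-Pearson bars. Il17f lies at 17.8% and 15.0% with Il17a against 5.04% and 2.80% without.

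By combination, 24.6% of pool gamma delta cells and 45.0% of those of the IL-18R- CD103- GFP- labelled library had none of the 4 transcripts. Il17a with Il23r was the most common pair, in 159 cells (22.3%) and 155 cells (12.5%). Il17a alone was found in 140 (19.6%) and 186 (15.0%) cells and Il23r alone in 143 (20.03%) and 239 (19.3%). All 4 together were found in 0 and 1 gamma delta cells and in 1 pool alpha beta cell. None of the 24 pool CD3-negative cells with any of the 4 had more than 1 of them.

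CD3-negative cells of the IL-18R- CD103- GFP- labelled library gave other combinations. Il23r was found in 8 of 18 cells with Il22 (44.4%, 21.5 to 69.2) and in 16 of 203 without (7.88%, 4.57 to 12.5). Thinned to 2000 UMIs the shares were 27.8% and 3.02%. Il17f was found in 4 of the 18 (22.2%), and those 4 cells held 306 of the 573 Il22 UMIs. Il17a was found in 1 of the 18. In gamma delta cells of the same library Il17a was in 15 of 20 cells with Il22, and the difference between the gates was not tested. In pool alpha beta cells, 4 of 12 with Il22 (33.3%) had Il17a against 25.9% of those without, and 7 of 12 had Il23r (58.3%) against 39.6%.

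The share of cells with Il17a differed with the amount of Trdc. Among CD3-positive pool cells with 1 Trdc UMI, just outside the gate, 30.3% of 33 cells had Il17a, and with 2 UMIs, just inside, 27.3% of 22 cells. Among cells of the IL-18R- CD103- GFP- labelled library, the shares were 6.67% of 45 and 12.5% of 48 cells. At 10 or more Trdc UMIs they were 61.7% and 42.6%, and Il23r stood at 54.5% and 41.1%. Cells near the edge of the gate thus had Il17a less often than cells with much Trdc, in both libraries.

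Other listed genes marked the gamma delta cells with Il17a. Trdv4 was found in 95.5% of pool cells with Il17a against 70.0% without, and in 95.2% against 65.2% in the IL-18R- CD103- GFP- labelled library. Cd163l1, a scavenger receptor of type 17 gamma delta cells, was found in 95.8% against 76.6% and 96.6% against 67.6%. Blk, a kinase of the Src family needed for such cells, was found in 82.8% against 69.4% and 80.4% against 47.5%, and Il1r1, the receptor for IL-1, in 66.6% against 46.6% and 59.7% against 34.2%. Klrd1, the CD94 receptor of natural killer cells, went the other way in the second library, with 0.966% of cells with Il17a and 27.4% of those without. In the pool Klrd1 was rare on both sides, at 0.531% and 3.86%. Klrd1 was thus found in a larger part of the gamma delta cells without Il17a in the second library than in the pool.

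The cells with Il22 outside the gamma delta gate were too few for the rule by which genes were chosen, so the genes named here were picked after their values were seen. Of the 18 CD3-negative cells with Il22 in the IL-18R- CD103- GFP- labelled library, 11 had Nrp1 (61.1% against 21.7% without Il22), 11 had Kit (61.1% against 36.0%) and 6 had Cd4 (33.3% against 7.88%). Ncr1, a receptor of ILC3 and natural killer cells, was found in 0 of the 18 and in 12.3% of the rest, a share that the exact interval of 0 of 18 includes. Of the 24 CD3-negative cells with Il23r, 13 had Ccr6 (54.2% against 7.11%), a chemokine receptor of lymphoid tissue inducer cells and Th17 cells. The 12 pool alpha beta cells with Il22 included 9 with 5830411N06Rik (75.0% against 33.0%), a relative of Cd163l1, and 0 with Cd5, Cd6 or Il17rb, each found in 23.6% to 25.9% of alpha beta cells without Il22.

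The pathway around these genes was read from 4 lists: 11 receptors and signalling genes, 13 factors, 16 other effector products and 7 receptors for IL-17 and IL-22. Il23r, itself 1 of the 4 genes, is also in the first list. Its calls there, and its part in the medians of that list, repeat values given above. Between gamma delta and CD3-negative cells of the pool, 5.28% of 6438 measured genes were at least 2-fold higher and 13.7% at least 2-fold lower in gamma delta cells. Of the receptor and signalling genes all 11 were measured, 4 were higher (Il23r, Il12rb1, Il1r1 and Il7r) and 2 lower (Il6ra and Jak2), with a median log2 ratio of 0.34 against -0.10 for all genes. Il12rb1, the partner chain of Il23r, stood at 41.0 against 13.7 UPM, and Il1r1 at 226.8 against 22.9 UPM. Of 12 measured factors 4 were higher (Maf, Irf4, Sox13 and Blk) and 2 lower (Ahr and Gata3), with a median of -0.04. Sox13, a factor of gamma delta cells that make IL-17, stood at 126.0 against 5.17 UPM. Gata3, the ILC2 factor, stood at 79.7 against 268.6 UPM. Of 5 measured effector products, Tnf and Lta were higher and Areg and Il13 lower, and of 4 measured receptors Il17re was higher (126.6 against 6.28 UPM) and Il17rb lower. The medians of these last 2 lists were 0.91 and -0.42. The markers of other lineages, all 15 found and 5238 UPM in these CD3-negative cells, stood at 30.2 UPM in gamma delta cells with 8 of 15 at 0, and their part in these counts was not tested.

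In the IL-18R- CD103- GFP- labelled library the same contrast called 2.90% of genes higher and 9.22% lower. Il23r, Il12rb1 and Il1r1 were higher of 10 measured receptor and signalling genes, and Il23r stood at 108.6 against 25.1 UPM. Of 13 factors Irf4, Sox13, Blk and Zbtb16 were higher and Ahr and Gata3 lower. Among 6 measured effector products Lta and Areg were lower in gamma delta cells, with Lta, a lymphotoxin chain, at 17.2 against 44.9 UPM. Lta was thus called in opposite directions in the 2 libraries. Il17rb was the 1 call among 4 measured receptors. The list medians were 0.01, 0.0037, -0.22 and 0.28, against -0.10 for all genes. The other-lineage markers summed to 50.9 UPM in gamma delta cells and 2428 UPM in CD3-negative cells, and their part was not tested.

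Gamma delta and alpha beta cells of the pool differed in fewer of these genes. There 2.68% of measured genes were higher and 2.52% lower in gamma delta cells, and of the lists Il1r1, Irf4, Sox13, Blk and Lta were higher and Il17rb, a chain of the IL-25 receptor, lower at 0.879 against 51.9 UPM. Within the IL-18R- CD103- GFP- labelled library 8.11% were higher and 2.54% lower, with 4 of 9 receptor and signalling genes (Il23r, Il12rb1, Il1r1, Traf3ip2) and 5 of 13 factors (Maf, Irf4, Runx1, Sox13, Blk) higher. Tnf, Csf2 and Areg of 5 effector products and Il17re of 4 receptors were also higher, and Il17rb was lower. Il1r1 stood at 144.7 against 23.8 UPM. In the order of the lists above, medians were 0.34, 0.07, 0.60 and 0.19 in the pool, against 0.02 for all genes, and 0.67, 0.88, 1.49 and -0.39 in the second library, against 0.17.

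Between the 2 alpha beta gates, in which the 4 genes differed along with the shares of cells with Cd8a and Ccr6 given above, some of the listed genes differed too. Beside the 11.2% of genes higher in the pool, 3.91% were lower. Il23r and Il1r1 of 8 measured receptor and signalling genes were higher in the pool, as were Rora, Runx1, Nfkbiz, Blk and Zbtb16 of 11 factors, whereas Tbx21, the factor of Th1 cells, was lower. Zbtb16, encoding PLZF, stood at 104.5 against 32.7 UPM. Of 4 effector products Tnf and Areg were higher and Ifng lower, at 3.10 against 25.3 UPM, and of 4 receptors Il17re was higher and Il17ra lower. List medians were 0.73, 0.96, 0.91 and 0.04, against 0.23 for all genes. Other-lineage markers stood at 41.8 and 43.1 UPM in the 2 gates, with 7 and 4 of 15 found.

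Between gamma delta cells with and without Il17a, 2 listed genes were called in the pool and 5 in the second library, each higher with Il17a. In the pool 0.543% of measured genes were at least 2-fold higher with Il17a, among them Irf4, a ratio of 2.58 (1.59 to 4.33), and Csf2, at 20.7 against 10.2 UPM. Among cells of the IL-18R- CD103- GFP- labelled library, 1.46% were, among them Il1r1 (2.22), Irf4 (2.10), Blk (2.09), Csf2 (3.83) and Areg (2.59). No gene of the 4 lists was 2-fold lower in either library. List medians in the order receptors and signalling, factors, effector products and IL-17 or IL-22 receptors were 0.18, 0.14, 0.26 and 0.01 in the pool, against 0.01 for all genes, and 0.28, 0.66, 0.61 and 0.03 in the second library, against 0.12. Irf4, a factor that Th17 cells need, and Csf2, the gene of GM-CSF, were thus past 2-fold in both.

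**Figure D5:**
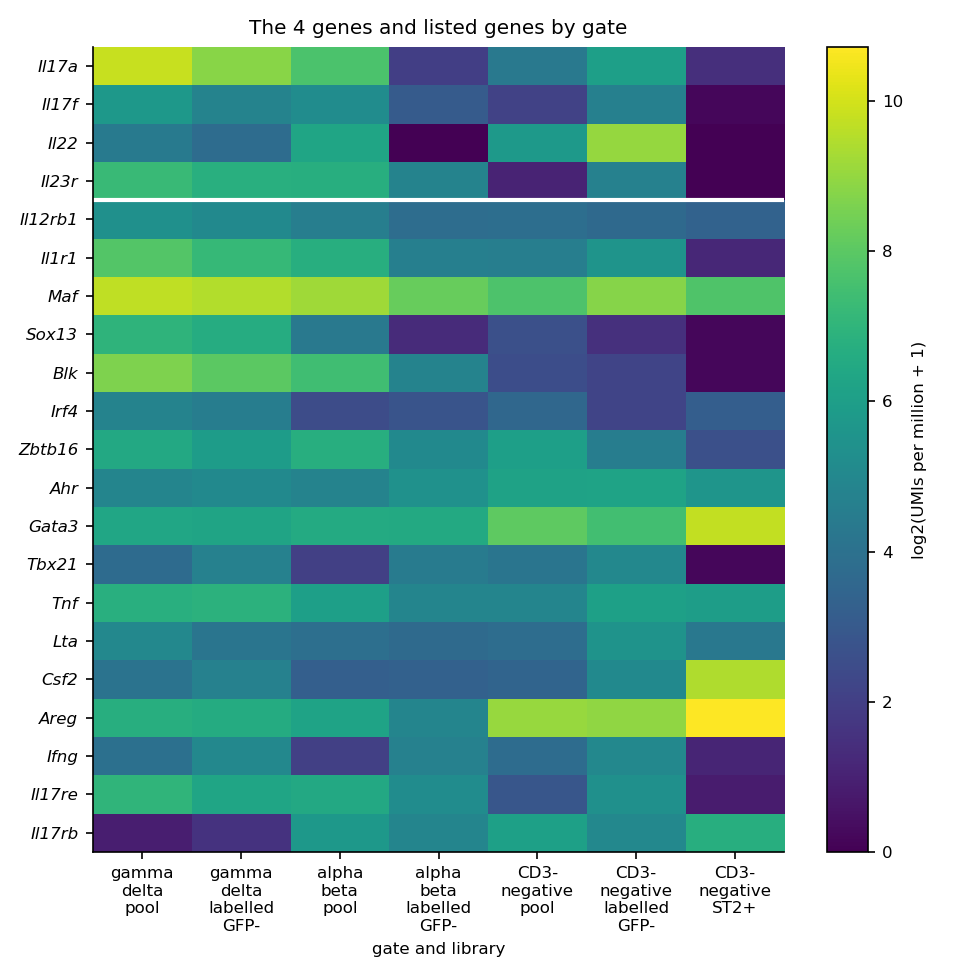
Rows are the 4 genes (above the white line) and 17 listed genes, columns are gates by library, and colour gives log2(UPM + 1). Il17a reaches its highest value in pool gamma delta cells and Il22 in CD3-negative cells of the IL-18R- CD103- GFP- labelled library (labelled GFP- on the axis). Sox13 and Blk are higher in pool gamma delta than in pool CD3-negative cells.

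Across the 11 groups of at least 50 cells made by gate and library, likeness of level was measured as Pearson's r of log2(UPM + 1) among 7345 genes. The groups share libraries, so r is a description. The 5 genes most like Il23r were Il17re (0.98), Cd164, Tcrg-C2, Slc16a6 and Rbpms2. For Il17a they were Selenop (0.98), Krtcap2, Osbpl3, Prelid2 and Plxnd1, for Il17f Yme1l1 (0.95), Tmem50a, Svbp, Ttbk2 and Uso1, and for Il22 Zfp800 (0.96), Ago2, Cited4, Midn and Prkar1a. Among the 4, r was 0.84 for Il17a with Il23r, 0.75 for Il17f with Il23r and 0.70 for Il17a with Il17f. Il22 stood apart with 0.46, 0.46 and 0.27 against Il17a, Il17f and Il23r.

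Neighbouring genes did not all share these patterns. Mcm3, a replication gene 12.3 kb from Il17f, had 309, 214 and 185 UMIs in the 3 libraries. Il12rb2, a chain of the IL-12 receptor 46.7 kb from Il23r, had 34, 81 and 5. Il22 has a near-identical copy, Iltifb, 79.6 kb away on the other strand. Their transcripts of 1110 and 1111 bases were 97.3% identical with 29 mismatches, and 95.8% identical over the last 400 bases, where reads of this chemistry fall. Iltifb had 4, 3 and 0 UMIs, so the Il22 counts are uncertain by the reads that fit both copies.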

How the data were processed

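Single cells of 3 libraries were profiled with the 10x Chromium 3' v3.1 dual index chemistry, and each library is 1 group. The authors used Cell Ranger 6.0.1 and build mm10, per the submitters' processing notes, and its annotation and cell-calling settings are, in the sources used here, not given. The deposited values are counts: whole UMI counts per gene and barcode, with no normalisation, per the file headers. Of 1688, 1903 and 1760 barcodes, 29, 20 and 138 were left out for under 500 genes or over 10% mitochondrial UMIs. No doublet caller was run, and leaving out cells over the 98th percentile of UMIs was tried instead. Free RNA was not removed.

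Cells were gated by Trdc, Trac, Cd3e and Cd3d UMIs, summed by gate and scaled to UPM. Since each group is 1 library, nothing was tested: UMI sums have exact Poisson intervals and shares exact Clopper-Pearson intervals (95%). A gene was measured at 20 UPM in either group and called at a ratio of 2 with sums raised to 3 UMIs (0.333, 0.309 and 0.377 UPM over a library), a size rule tested on simulated data. Named genes were the 4 genes, the Il22 copy Iltifb, neighbours within 100 kb, listed genes (up to 4 per list and comparison by largest ratio, and those found more or less often in cells with each of the 4 genes) and the 5 most alike. A listed gene and a neighbour are not reported here and were left out of the counts and medians of the lists. The genes and lists were chosen with earlier results of these data known. Loci are from GENCODE M21 and promoters from RefSeq, both on GRCm38. Python 3.11.15 with scipy 1.17.1, numpy 2.4.6 and pandas 2.3.3 was used, with edgeR 4.0.16 (TMM) and DESeq2 1.42.0 (median of ratios) for scaling alternatives. No other file was used, and no column lacked a sample.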

Additional observations from a re-analysis of the deposited data

Results flagged for a closer look

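A group of 3 contrasts between gates pointed in opposite directions in the IL-18R+ pool and the second library, the one labelled IL-18R- CD103- GFP-. With 1 library each these differences were not tested. For Il22 the log2 ratio of gamma delta to alpha beta cells was -2.01 in the pool and 1.52 in the other library, where alpha beta cells had 0 Il22 UMIs and the floor of 3 UMIs was used. For Il17a the log2 ratio of alpha beta to CD3-negative cells was 3.4 in the pool and -3.86 in the other library, the latter on 2 UMIs in alpha beta cells raised to the floor. For Il17f the same ratio was 3.45 and -1.70. All 3 use the alpha beta gate of the IL-18R- CD103- GFP- labelled library, which held 103 cells against 224 in the pool. For Il17a and Il17f the CD3-negative gate differed between the libraries too. Il17a stood there at 19.2 UPM in the pool and 64.6 in the other library, and Il17f at 3.33 and 24.2 UPM.
Among other genes Lta, a lymphotoxin chain, had a log2 ratio of gamma delta to CD3-negative cells of 1.21 in the pool and -1.39 in the other library.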

How the results depend on the processing

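No ratio between libraries changed direction past its counting error under the alternatives run. A change of direction was not looked for in the other values. Of all values, 122 main values and 510 others stayed within their counting interval, or within 1.5 times for counts of genes, and 28 and 74 did not. Keeping all barcodes (84 values), leaving out the deepest cells (80), the cells with other-lineage markers (72) or the shared barcode (84) moved none; the last 2 were chosen after seeing the data. The gamma delta share of Il17a UMIs in the pool was 70.8% with Trdc at 1 UMI and 87.5% with overlapping gates (96.0% in the IL-18R- CD103- GFP- labelled library). The stricter CD3-negative gate gave Il22 shares of 7.93% and 11.2%. These shares of Il22 UMIs lay below the 17.1% and, narrowly, the 11.8% of the gamma delta gates. This was the reverse of the main order of UMI shares. The stricter gates held 31 Il22 UMIs in 136 cells and 75 in 49, against 67 in 714 and 79 in 1236 gamma delta cells. By share of cells, Il22 stood at 0.735% against 1.96% in the pool and 4.08% against 1.62% in the second library. The shares of the stricter gates rest on 1 and 2 cells with Il22. In pool and second library, requiring 2 UMIs gave 44.8% and 25.0% of gamma delta cells with Il17a, 16.4% and 12.7% with Il23r, and Il17f in 7.81% and 8.74% of cells with Il17a and 2.03% and 1.08% without. Thinning gave 45.0% and 26.3% for Il17a, 26.3% and 19.5% for Il23r, and Il17f in 9.38% and 8.70% of cells with Il17a. The pool to second library ratio of Il17a was 1.25 with TMM and 1.24 with median of ratios, which put Il23r at 0.953. Of the 4 lists together, 5 genes were higher and 1 lower in pool gamma delta than alpha beta cells, against 8 and 2 at 10 UPM and 9 higher at a ratio of 1.5. In the second library 7 were higher and 5 lower in gamma delta than CD3-negative cells, against 11 and 8 at a ratio of 1.5, and 1 was lower than in alpha beta cells, against 2 at 10 UPM. No paired analysis was possible because each group is 1 library, so that no 2 groups share 2 or more replicate numbers. Depth limits Il23r most, since most cells with it had 1 UMI, and Il22 rests on few cells.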

Other observations

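Cells that met 2 gates, or none, also held the 4 transcripts. Of the cells that met both the gamma delta and the alpha beta gate, 93 of 150 (62.0%, 53.7 to 69.8) in the pool and 88 of 228 (38.6%, 32.2 to 45.2) in the IL-18R- CD103- GFP- labelled library had Il17a, and 54.0% and 36.0% had Il23r. These intervals overlapped those of gamma delta cells alone. Ungated cells, nearly all with Cd3g in the pool (94.5%), had Il17a in 34 of 146 cells (23.3%) and 12 of 91 cells (13.2%). The 4 ungated pool cells with Il22 held 65 UMIs, of which 49 were in 1 cell.

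By variable segment, Tcrg-V6 was found in 49.3% of pool gamma delta cells with Il17a and 36.5% of those without, and in 51.2% and 35.0% in the second library. Tcrg-V1 was found in 7.96% and 9.79% of the pool cells and in 8.45% and 10.5% of the others. Cxcr6, a chemokine receptor of tissue-resident lymphocytes, was found in 96.6% against 92.0% and 95.9% against 72.0%. Itgae, the gene of CD103, was found in 37.1% and 37.7% of pool gamma delta cells with and without Il17a.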
